A study of Mus musculus with 8 samples.

Results

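The histone lysine demethylases described here are 10 mouse genes, Kdm1a, Kdm1b, Kdm3a, Kdm3b, Kdm4a, Kdm4b, Kdm4c, Kdm4d, Kdm5a and Kdm5b, chosen by name from the 23343 genes of the expression tables and followed through late spermatogenesis. Their mRNA was measured by RNA-seq in pachytene spermatocytes (PS), cells in meiotic prophase, and in round spermatids (RS), the haploid cells that follow meiosis, from adult C57BL/6 testes that lacked both Rnf8 and Scml2 (Rnf8- and Scml2-dKO), with 2 samples per stage. Acetylation of histone H3 at lysine 27 (H3K27ac), a mark of active promoters and enhancers, was measured by ChIP-seq in PS and RS of wild-type adult C57BL/6 testes, again with 2 samples per stage. RNF8 is a ubiquitin ligase of the DNA damage response and SCML2 a germline Polycomb protein, and the study asked how the pair of proteins shapes histone marks and gene expression on the sex chromosomes. Both stages of the RNA-seq carry both deletions, while both stages of the ChIP-seq carry neither, so RNA and H3K27ac differ in genotype as well as in what was measured. RNA of other genotypes was not analysed here, and the stage differences in mRNA are those of the dKO. The cells were enriched by sedimentation through BSA, and for the dKO on a small scale from single mice. The replicates are called biological by the study.

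Demethylases remove methyl groups from histone lysines and so reverse the marks that methyltransferases lay down. The KDM1 proteins are FAD-dependent oxidases that act on mono- and dimethylated H3K4, and KDM5 proteins are JmjC-domain enzymes that act on di- and trimethylated H3K4, a mark of active promoters. KDM3 proteins remove mono- and dimethylation of H3K9, a repressive mark, and KDM4 proteins act on trimethylated H3K9 and, for most of them, on trimethylated H3K36. In the testis, Kdm3a is known to be needed for the expression of transition protein and protamine genes and for the condensation of spermatid chromatin, and Kdm4d is known for its high expression in male germ cells.

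The promoters of 5 members are shown because the results turn on them: Kdm3a and Kdm5b, whose mRNA fell most between the stages, Kdm1b, whose mRNA rose, Kdm4c, whose promoter had less H3K27ac in RS, and Kdm4d, the most expressed of the Kdm4 genes. Each run is the 250 bases before the RefSeq start (GRCm38.p6), written 5′ to 3′ on the strand of the gene. Capitals mark the CCAAT box, the GC box (GGGCGG), the TATA box (TATAAA) and the cAMP response element (TGACGTCA), on either strand.
Kdm3a, chr6:71632918-71633167, minus strand: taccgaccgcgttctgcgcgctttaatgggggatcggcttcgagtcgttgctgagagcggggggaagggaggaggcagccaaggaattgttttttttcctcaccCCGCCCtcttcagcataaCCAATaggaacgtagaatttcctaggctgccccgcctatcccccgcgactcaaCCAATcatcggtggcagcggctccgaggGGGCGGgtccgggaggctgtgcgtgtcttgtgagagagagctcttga
Kdm5b, chr1:134559928-134560177, plus strand: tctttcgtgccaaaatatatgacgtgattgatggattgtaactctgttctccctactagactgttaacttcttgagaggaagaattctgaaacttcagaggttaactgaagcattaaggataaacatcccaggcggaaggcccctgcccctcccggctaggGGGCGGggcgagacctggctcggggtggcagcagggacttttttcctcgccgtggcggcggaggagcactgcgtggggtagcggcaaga
Kdm1b, chr13:47043249-47043498, plus strand: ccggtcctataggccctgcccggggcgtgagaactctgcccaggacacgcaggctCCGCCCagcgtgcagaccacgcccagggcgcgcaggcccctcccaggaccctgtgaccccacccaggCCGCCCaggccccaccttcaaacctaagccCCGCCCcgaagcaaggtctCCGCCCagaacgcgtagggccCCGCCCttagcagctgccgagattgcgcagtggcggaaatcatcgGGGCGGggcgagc
Kdm4d, chr9:14500483-14500732, minus strand: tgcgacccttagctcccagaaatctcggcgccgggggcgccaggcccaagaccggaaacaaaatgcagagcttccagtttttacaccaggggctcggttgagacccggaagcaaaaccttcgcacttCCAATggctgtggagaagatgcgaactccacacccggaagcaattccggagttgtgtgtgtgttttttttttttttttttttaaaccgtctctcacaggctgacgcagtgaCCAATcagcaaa
Kdm4c, chr4:74251629-74251878, plus strand: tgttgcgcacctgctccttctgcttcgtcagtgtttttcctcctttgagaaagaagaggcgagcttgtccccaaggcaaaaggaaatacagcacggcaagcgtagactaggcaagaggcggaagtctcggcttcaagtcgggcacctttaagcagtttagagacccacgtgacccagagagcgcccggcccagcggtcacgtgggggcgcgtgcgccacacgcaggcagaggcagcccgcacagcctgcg
Kdm4c, upstream start, chr4:74242247-74242496, plus strand: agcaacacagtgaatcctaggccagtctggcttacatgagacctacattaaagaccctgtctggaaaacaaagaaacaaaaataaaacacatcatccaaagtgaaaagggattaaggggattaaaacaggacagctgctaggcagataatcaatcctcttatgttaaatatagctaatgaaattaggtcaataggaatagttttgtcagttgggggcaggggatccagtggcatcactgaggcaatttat

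These windows held few of the 4 motifs in common. The Kdm3a window held 2 CCAAT boxes and 2 GC boxes, that of Kdm5b 1 GC box, that of Kdm1b 6 GC boxes, that of Kdm4d 2 CCAAT boxes, and both Kdm4c windows held none of the motifs. RefSeq gives 2 further starts of Kdm3a that are not printed: the window before the one at 71632686 held 4 GC boxes and 31 CpG, and that before the one at 71609139 held none of the motifs and 0 CpG. Among 32851 RefSeq windows of the same length, 33.8% held a CCAAT box, 32.7% a GC box, 12.4% a TATA box and 1.55% the cAMP response element. The windows also differed in CpG: 22 in Kdm1b, 20 in Kdm3a, 19 at the downstream Kdm4c start, 14 in Kdm4d, 13 in Kdm5b and 0 at the upstream Kdm4c start, against a median of 6 over all windows. A match is a match of letters only, and binding of a factor was not measured. RefSeq windows were matched for 7 of the 10 members. Kdm4b and Kdm5a had none in the table used here, and Kdm3b was left out without being looked up.

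The RNA libraries held between 9655405 and 12289694 reads on genes. The 10 members together took 0.2086% and 0.1925% of these reads in the PS replicates and 0.1003% and 0.1060% in the RS replicates. The deleted genes kept reads: Rnf8 had 93 and 110 reads in PS and 61 and 50 in RS, and Scml2 had 40 and 92 reads in PS and 44 and 98 in RS, so a gene total does not check these deletions. All 10 round spermatid markers were higher in both RS samples than in both PS samples, with summed RPKM of 465 and 796 in PS against 13249 and 14059 in RS. Of 10 pachytene markers, 8 were higher in both PS samples and 1 in both RS samples. Their sums were 833 and 757 in PS against 331 and 414 in RS. Markers of other cells moved with the stage too. All 7 Leydig cell markers were higher in PS, with sums of 785 and 568 against 72.1 and 45.2 in RS, and Insl3 alone reached 593 RPKM. Macrophage and blood markers summed to 3.08 and 2.23 in PS and to 42.7 and 36.7 in RS, of which Lyz2 made up as much as 30.2, while Hbb-b1 and Hba-a1 were listed at 0 in all 4 samples. Sertoli cell markers summed to 70.8 and 32.2 in PS and to 40.3 and 22.8 in RS, peritubular and vascular markers to 5.33 and 3.89 in PS and to 5.49 and 4.39 in RS, and markers of spermatogonia and early meiotic cells to 44.6 and 29.7 in PS and to 57.5 and 53.9 in RS. Of the 9 markers of spermatogonia and early meiotic cells, 8 were higher in both RS samples than in both PS samples. The same held for 5 of 7 macrophage and blood markers, 2 of 5 peritubular and vascular markers and 1 of 8 Sertoli cell markers. In these 4 lists, 1 peritubular and vascular marker was higher in both PS samples. The part of these other cells in the results on the demethylases was not tested.

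Of the 10 demethylase genes, 3 were lower in RS than in PS (Kdm3a, Kdm5b and Kdm4c) and 3 were higher (Kdm4b, Kdm1b and Kdm4a). A gene was called where edgeR's quasi-likelihood test gave an adjusted p under 0.05 and the change was at least 1.5-fold. By this rule 58.0% of 14647 tested genes changed, 30.4% upwards and 27.6% downwards, so the share of members called was near that of all genes. All 10 members passed the filter on low counts. The median log2 fold change of the members was −0.27, beside 0.01 for all tested genes. For 9 of the 10 members the RPKM of the 2 stages did not overlap, as was the case for 83.6% of tested genes. In bulk samples, fewer cells of a type and less RNA per cell cannot be told apart.

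**Figure D1:**
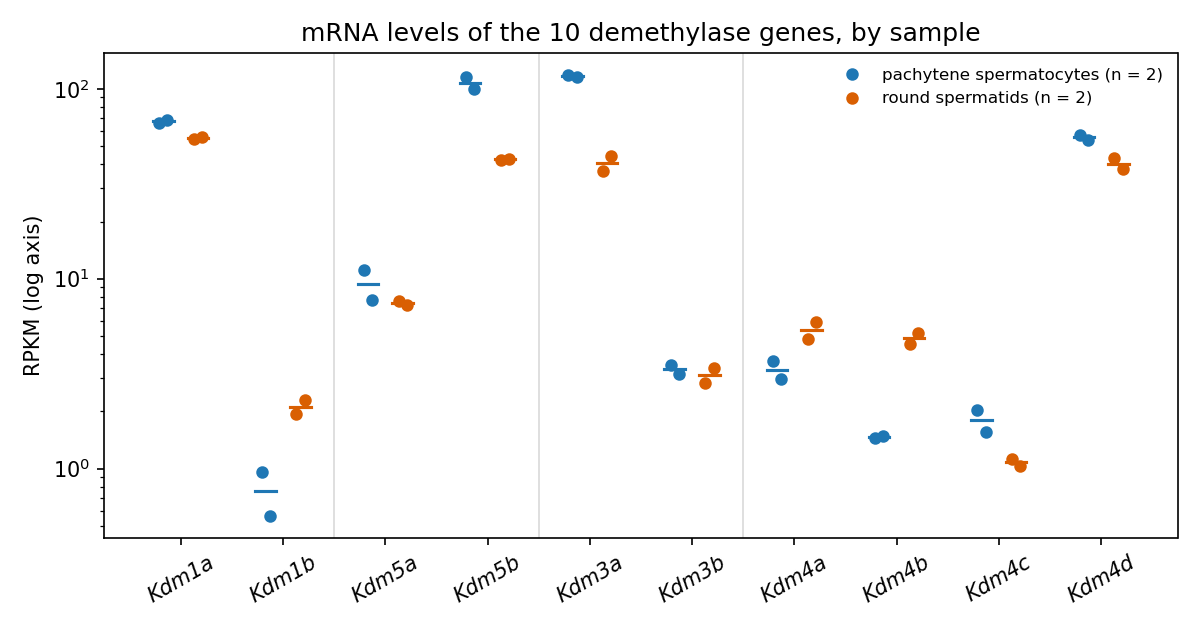
RPKM of each of the 10 demethylase genes on a log axis, for 2 PS samples (blue) and 2 RS samples (orange) of the Rnf8- and Scml2-dKO, where short lines mark the means of the 2 samples. Kdm3a and Kdm5b have means of 117 and 107 RPKM in PS and of 40.6 and 42.5 in RS, while Kdm4b and Kdm1b lie higher in RS, and only Kdm3b has overlapping stages.

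In PS, 4 members stood far above the rest. Kdm3a had a mean of 117 RPKM and Kdm5b 107, followed by Kdm1a with 67.4 and Kdm4d with 55.5, and the next gene, Kdm5a, had 9.43. Below it came Kdm3b with 3.34, Kdm4a with 3.32, Kdm4c with 1.80, Kdm4b with 1.47 and Kdm1b with 0.759. Among neighbours in this order, only Kdm3b and Kdm4a had overlapping replicates. In RS the same 4 genes led, but in another order: Kdm1a with 54.9 RPKM, then Kdm5b with 42.5, Kdm3a with 40.6 and Kdm4d with 40.4. The replicates of Kdm5b, Kdm3a and Kdm4d overlapped with their neighbours in RS, so these 3 could not be ordered. Kdm5a followed with 7.47, Kdm4a with 5.36 and Kdm4b with 4.85, the last pair overlapping, and Kdm3b with 3.10, Kdm1b with 2.12 and Kdm4c with 1.08 closed the list.

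Among the H3K4 demethylases, Kdm5b showed the largest fall. This gene, on chromosome 1 at 134560178 to 134632878 (mm10, plus strand), encodes a JmjC enzyme for H3K4me3. Its level was 115 and 99.6 RPKM in PS and 42.1 and 42.9 RPKM in RS, from 8237, 6968, 3708 and 3184 reads. Both RS samples lay below both PS samples, and the log2 fold change was −1.29 ± 0.12 (SE, n = 2 per stage), a 2.45-fold lower level in RS (edgeR adjusted p = 2.88e-05). Its paralogue Kdm5a, at chr6:120364099-120444574, had 11.1 and 7.74 RPKM in PS and 7.63 and 7.30 in RS. One PS sample was close to both RS samples, and the log2 fold change of −0.29 ± 0.17 did not pass (edgeR adjusted p = 0.162).

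Kdm1a, which encodes LSD1 and acts in the CoREST complex with histone deacetylases, had 66.1 and 68.7 RPKM in PS and 54.1 and 55.6 in RS (chr4:136550533-136602723, minus strand). The RS samples were the lower ones, but by a log2 fold change of −0.26 ± 0.12, which missed the threshold (edgeR adjusted p = 0.0853). Kdm1b, which encodes LSD2, an enzyme known for its role in setting maternal imprints in oocytes, lies at chr13:47043499-47085279. It had 0.955 and 0.564 RPKM in PS and 1.93 and 2.31 in RS, from 54 and 31 reads in PS and 134 and 135 in RS. It rose in RS by 1.52 ± 0.29 on the log2 scale, 2.87-fold (edgeR adjusted p = 0.0019), and it had the lowest level of the 4 H3K4 members in both stages.

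Among the H3K9 demethylases of the KDM3 family, Kdm3a changed and Kdm3b did not pass the test. Kdm3a (chr6:71588972-71632905, minus strand) had 118 and 116 RPKM in PS and 36.9 and 44.2 in RS, from 6486, 6206, 2487 and 2510 reads. All RS values lay below all PS values, and the log2 fold change of −1.49 ± 0.13, a 2.81-fold lower level, had an edgeR adjusted p of 2.16e-05. Its reads were divided between 2 transcripts whose starts lie close to each other. The transcript with the downstream start, NM_173001, received 0 and 1660 reads in PS and 47 and 429 in RS. These values differed more between replicates than between stages, so only the gene total was used. Kdm3b (chromosome 18) had 3.53 and 3.15 RPKM in PS and 2.82 and 3.37 in RS. The stages overlapped, and its log2 fold change of −0.07 ± 0.17 (edgeR adjusted p = 0.737) changed sign when genes with fewer reads were left out (0.05) and without RS replicate 1 (0.14).

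The KDM4 family split, with 2 genes higher, 1 lower and 1 under the fold threshold. Kdm4b (chr17:56326050-56402873) rose most of all members, from 1.45 and 1.48 RPKM in PS to 4.51 and 5.19 in RS, or from 76 reads in each PS sample to 291 and 282. Its log2 fold change was 1.76 ± 0.20, 3.40-fold (edgeR adjusted p = 9.67e-05). Kdm4a (chr4:118137004-118180043, minus strand) had 3.67 and 2.96 RPKM in PS and 4.82 and 5.91 in RS. Both RS samples were above both PS samples, with a log2 fold change of 0.74 ± 0.19 (edgeR adjusted p = 0.00957). This call was lost without RS replicate 2 (adjusted p = 0.0557) and in limma on log2(RPKM + 1), where the change of 0.56 was under 1.5-fold.

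Kdm4c (chr4:74242497-74405864), an enzyme for trimethylated H3K9 and H3K36 like its relatives Kdm4a and Kdm4b, had 2.04 and 1.56 RPKM in PS and 1.12 and 1.04 in RS. These values rested on 98, 73, 66 and 51 reads. Its log2 fold change was −0.70 ± 0.26 with an edgeR adjusted p of 0.0401, and the call was lost under 7 of 11 alternatives, among them DESeq2 (adjusted p = 0.142) and each of the fits without PS replicate 1 (adjusted p = 0.109), RS replicate 1 (adjusted p = 0.203) or RS replicate 2 (adjusted p = 0.299). All of its reads were given to the transcript with the downstream start, NM_144787, and 0 reads to the one with the upstream start. Kdm4d (chr9:14462581-14500482, minus strand), which acts on H3K9 but not on H3K36, had 57.3 and 53.8 RPKM in PS and 43.0 and 37.9 in RS. The RS samples were both lower, by −0.42 ± 0.13 on the log2 scale (edgeR adjusted p = 0.0204), which is under 1.5-fold and so was not called.

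By substrate, the summed level of the 4 H3K4 members was 193 and 177 RPKM in PS and 106 and 108 in RS. The 2 KDM3 genes summed to 122 and 119 RPKM in PS and to 39.7 and 47.6 in RS, and the 4 KDM4 genes to 64.4 and 59.8 in PS and to 53.4 and 49.99 in RS. The sum over all 10 genes was 367 ± 16.8 RPKM in PS and 202 ± 4.79 in RS (mean ± SD, n = 2). The H3K4 members made up 50.3% of this sum in PS and 52.9% in RS, while the KDM3 genes went from 32.8% to 21.6% and the KDM4 genes from 16.9% to 25.6%.

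**Figure D2:**
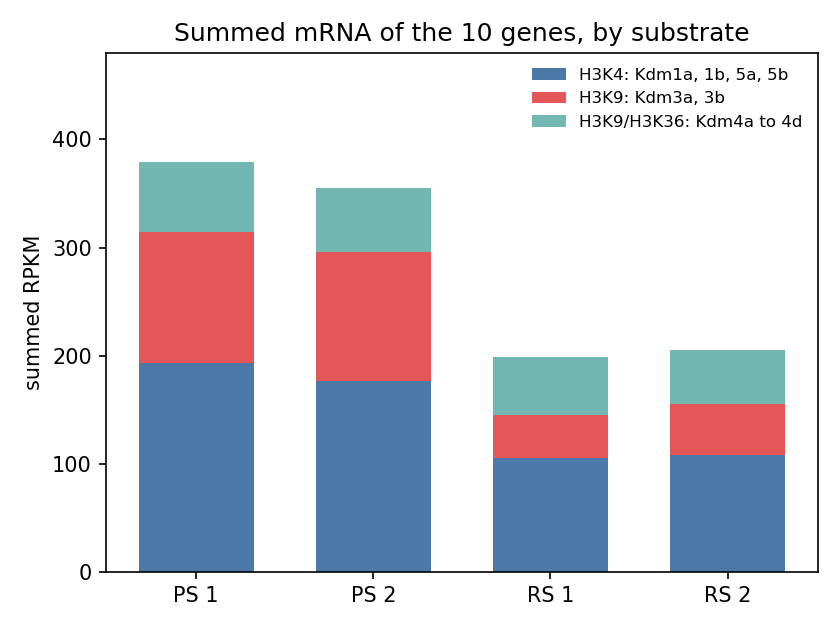
Summed RPKM of the 10 demethylase genes in each of the 4 dKO samples (bars, starting at 0), stacked by substrate. The bars of PS 1 and PS 2 reach 379 and 355 and those of RS 1 and RS 2 reach 199 and 206, with the red KDM3 segment shrinking from about 120.3 to 43.7 on average.

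Shares within groups of close relatives were read in each sample. Kdm1a was 98.6% and 99.2% of the summed Kdm1a and Kdm1b level in PS and 96.6% and 96.0% in RS. Kdm3a was 97.1% and 97.3% of the Kdm3 pair in PS and 92.9% in each RS sample. Kdm5a went the other way, from 8.83% and 7.21% of the Kdm5 pair in PS to 15.3% and 14.5% in RS, beside the fall of Kdm5b. Kdm4d made up 88.9% and 89.9% of the 4 Kdm4 genes in PS and 80.4% and 75.7% in RS. In all 4 cases the stages did not overlap. How often shares of other gene groups do so was not computed. The RPKM of single genes, an unlike measure, did not overlap for 83.6% of tested genes. The exact permutation test of each share, two-sided, gave p = 0.3333, the smallest that 2 against 2 samples allow, so none can be called.

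H3K27ac was present at the start of all 10 members in all 4 wild-type samples, as at 11394 of the 13699 promoters tested. It was called lower in RS at only 1 member, Kdm4c, and higher at none. The value used was the highest fold enrichment of an interval that overlapped the 2000 bp on either side of a start, tested by limma on log2(1 + fold enrichment). By this test 21.0% of 13699 promoters were called, 15.8% lower in RS and 5.23% higher. The deposited fold enrichment is the ratio of fragment pileup to 1 constant background per sample, with no input in it, and the background was 1.43 and 0.824 fragments in PS and 1.46 and 0.723 in RS. The read totals behind these lists are unknown. The samples differed as a whole: the lists held 41095 and 49434 intervals in PS and 74919 and 45863 in RS, and RS replicate 2 had the lowest value of the 4 samples at all 10 members. The median log2 difference over all promoters was −0.43, and that of the members −0.31. After each sample was centred on its median the median over all promoters was −0.04, with 13.7% of promoters higher in RS and 13.3% lower.

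**Figure D3:**
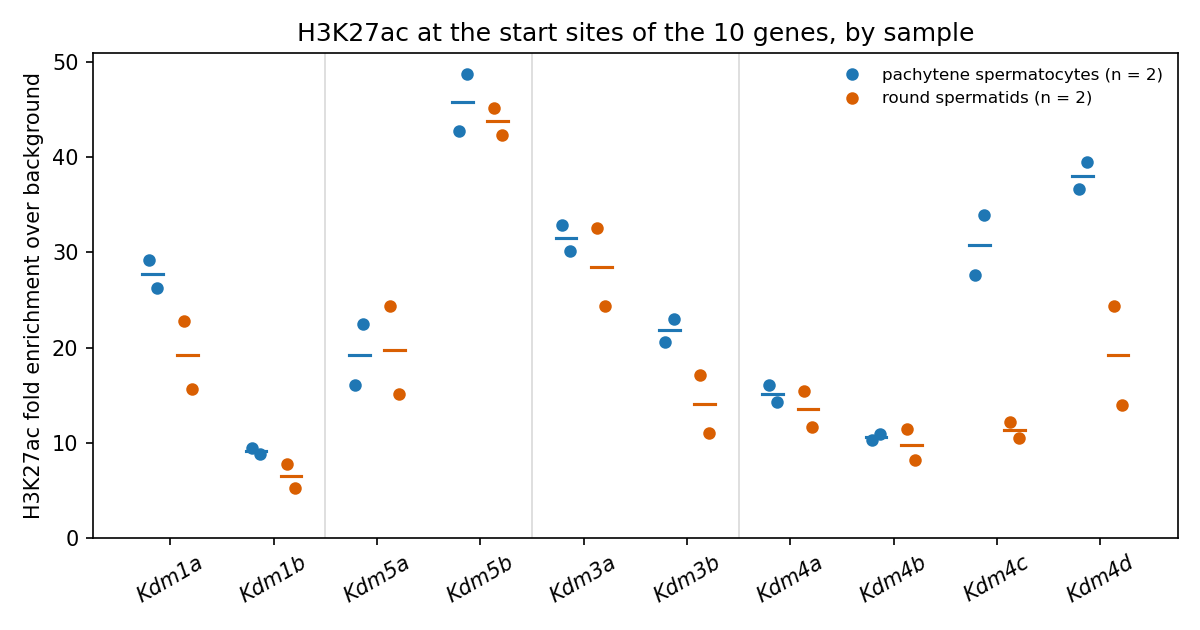
Highest H3K27ac fold enrichment over background within 2000 bp of the start of each gene (linear axis from 0), in 2 PS (blue) and 2 RS (orange) wild-type samples, with short lines for the means. Kdm5b is near 45 in both stages, and Kdm4c drops from 30.8 to 11.3 on average.

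Kdm4c had fold enrichments of 27.6 and 34.0 in PS and 12.2 and 10.4 in RS, from pileups of 66, 61, 29 and 17 fragments. Both RS samples lay below both PS samples, and the log2 difference was −1.36 ± 0.18 (limma adjusted p = 0.0173). Centred on sample medians it was −0.97 (limma adjusted p = 0.00307). The call was lost without PS replicate 1 (adjusted p = 0.216), PS replicate 2 (adjusted p = 0.288) or RS replicate 2 (adjusted p = 0.0833), each with the same direction. The intervals spanned 2079 and 2126 bp in PS and 1664 and 1614 bp in RS, and all covered the downstream start at 74251879, whose window of 250 bases is shown above. Around the upstream start at 74242497, where the printed window held no CpG, 0 of 4 samples had an interval within 2000 bp, and no read was given to that transcript. RNA of Kdm4c in the dKO and H3K27ac at its promoter in wild type were thus both lower in RS, the first by a call that did not hold under most alternatives.

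Kdm4d, whose interval also covers the start of its neighbour Cwc15, had fold enrichments of 36.6 and 39.5 in PS and 24.4 and 13.9 in RS. The RS samples were both lower and also far from each other, and the log2 difference was −1.002 ± 0.29 (limma adjusted p = 0.0783). It passed after centring on the median (−0.61, limma adjusted p = 0.0229), after quantile normalization (−0.64, limma adjusted p = 0.0411), with intervals required in all 4 samples, and without RS replicate 1 (−1.39, limma adjusted p = 0.0287).

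At the other 8 members no difference was called. Kdm5b had some of the highest promoter values in the genome, 42.8 and 48.8 in PS and 45.2 and 42.4 in RS, at percentiles of 99.2 and 99.9 among all promoters. The stages overlapped, with a log2 difference of −0.06 ± 0.15 (limma adjusted p = 0.778), which was 0.33 after centring. Kdm3a had 32.9 and 30.1 in PS and 32.5 and 24.4 in RS, again overlapping, with a difference of −0.16 ± 0.19 (limma adjusted p = 0.560) that was 0.24 after centring. For these 2 genes, whose mRNA was 2.45-fold and 2.81-fold lower in RS of the dKO, no difference in promoter H3K27ac was detected between the stages of wild type.

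The 3 genes whose mRNA rose had modest promoter values. Kdm1b, whose interval also covers Tpmt, had 9.47 and 8.77 in PS and 7.73 and 5.22 in RS (−0.46 ± 0.27, limma adjusted p = 0.261). With a −log10 q of at least 5 its only interval in RS replicate 2 dropped out and the difference was −1.77 (limma adjusted p = 0.297). Kdm4a had 16.1 and 14.3 in PS and 15.5 and 11.6 in RS (−0.16 ± 0.21, limma adjusted p = 0.577), and Kdm4b had 10.3 and 10.96 in PS and 11.4 and 8.13 in RS (−0.13 ± 0.24, limma adjusted p = 0.706). The stages overlapped for Kdm4a and Kdm4b, and for both the sign turned with centring (0.23 and 0.27). Of the remaining members, Kdm1a had 29.2 and 26.3 in PS and 22.8 and 15.7 in RS, Kdm3b 20.6 and 23.0 in PS and 17.1 and 11.03 in RS, and Kdm5a, whose interval also covers Ccdc77, 16.1 and 22.5 in PS and 24.4 and 15.1 in RS. Their log2 differences were −0.53 ± 0.22, −0.63 ± 0.25 and 0.02 ± 0.31, none of them called (limma adjusted p = 0.154, 0.140 and 0.978). Without RS replicate 1 both Kdm1a (−0.78, limma adjusted p = 0.0490) and Kdm3b (−0.92, limma adjusted p = 0.0449) passed, and Kdm3b did so too where intervals were required in all 4 samples (limma adjusted p = 0.0452). The values of 5 of the 10 members did not overlap between the stages, against 72.7% of all promoters tested.

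**Figure D4:**
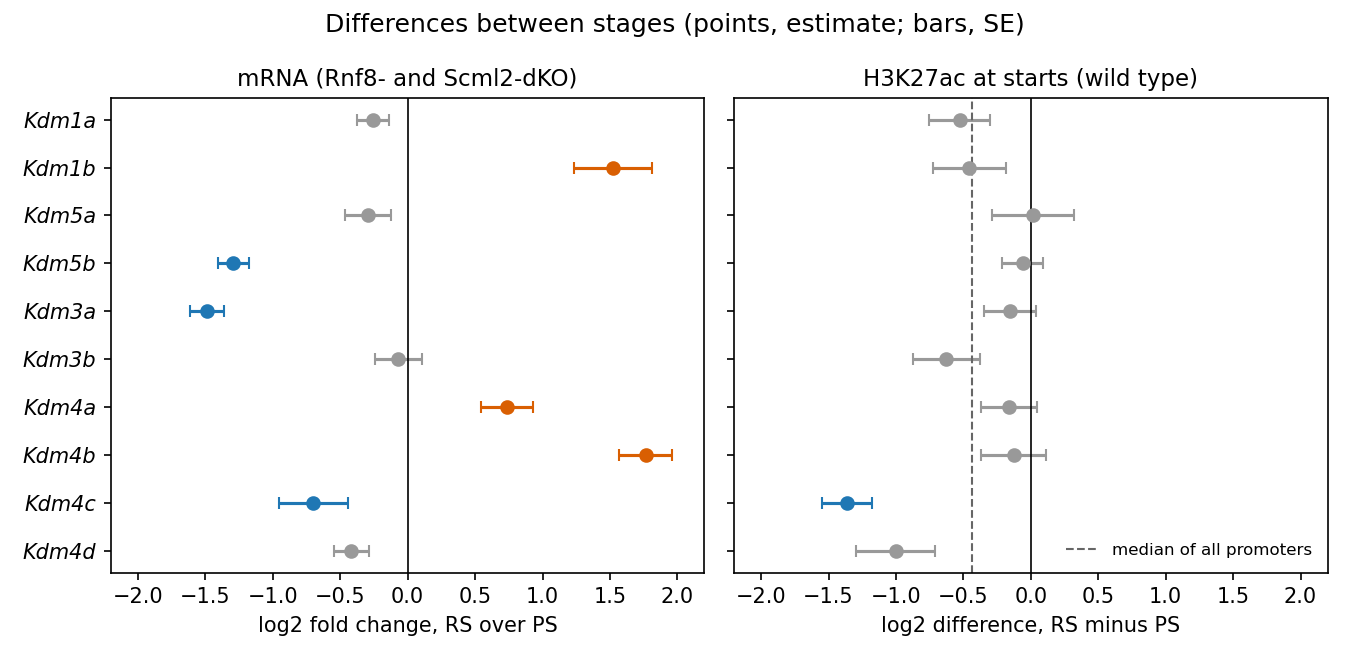
Difference between RS and PS for each gene, on log2 scales, in mRNA of the Rnf8- and Scml2-dKO (left, edgeR) and in H3K27ac at starts of wild type (right, limma), with estimates as points and SE as bars. Orange marks genes called higher in RS, blue those called lower and grey those not called, and the dashed line is the median of all promoters at −0.43, so that Kdm3a, Kdm4a, Kdm4b, Kdm5a and Kdm5b lie to its right.

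Away from the starts, 8 regions assigned to members had an interval in both PS samples and 15 in both RS samples. Of the 8 PS regions 3 met no interval in either RS sample, and of the 15 RS regions 8 met none in PS. Over the whole lists, 32.8% of 14812 regions in both PS samples and 42.9% of 15417 in both RS samples met no interval of the other stage. Those regions lay more than 2000 bp from the start of any gene, whereas member regions were kept clear only of the member's own starts. Nothing particular to the members is read from these counts. These counts move with how much was called in a sample: the q threshold of 5 on the −log10 scale left 3 and 6 regions. No test was run on single regions. Upstream of Kdm3a, 2 regions had opposite orders. The one whose near edge lies 10309 bp upstream (chr6:71643214-71645679) had 8.64 and 14.3 in PS, and at most 6.51 and 5.22 in RS. The farther one, whose near edge lies 16021 bp upstream (chr6:71648926-71651422), had 16.7 and 15.1 in RS, while PS had 5.35 and 6.58 there.

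The body of Kdm4b held 4 regions in both RS samples. The first of them, 48349 bp from the start in an intron (chr17:56374399-56375561), had 6.10 and 6.39 and met no PS interval. The widest, at chr17:56387108-56389828, had 7.73 and 5.81 in RS and only short intervals of up to 4.12 and 3.84 in PS. Kdm5b had an intronic region at chr1:134610733-134612044 with 9.76 and 6.97 in RS and no interval in PS. Upstream of its start, in the part the lists assign jointly to Kdm5b and 4931440L10Rik, an interval reached 25.9 and 29.0 in PS and 40.1 in RS replicate 2. In RS replicate 1 this stretch was merged with the promoter into 1 interval of 11780 bp, so it has no value of its own there.

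**Figure D5:**
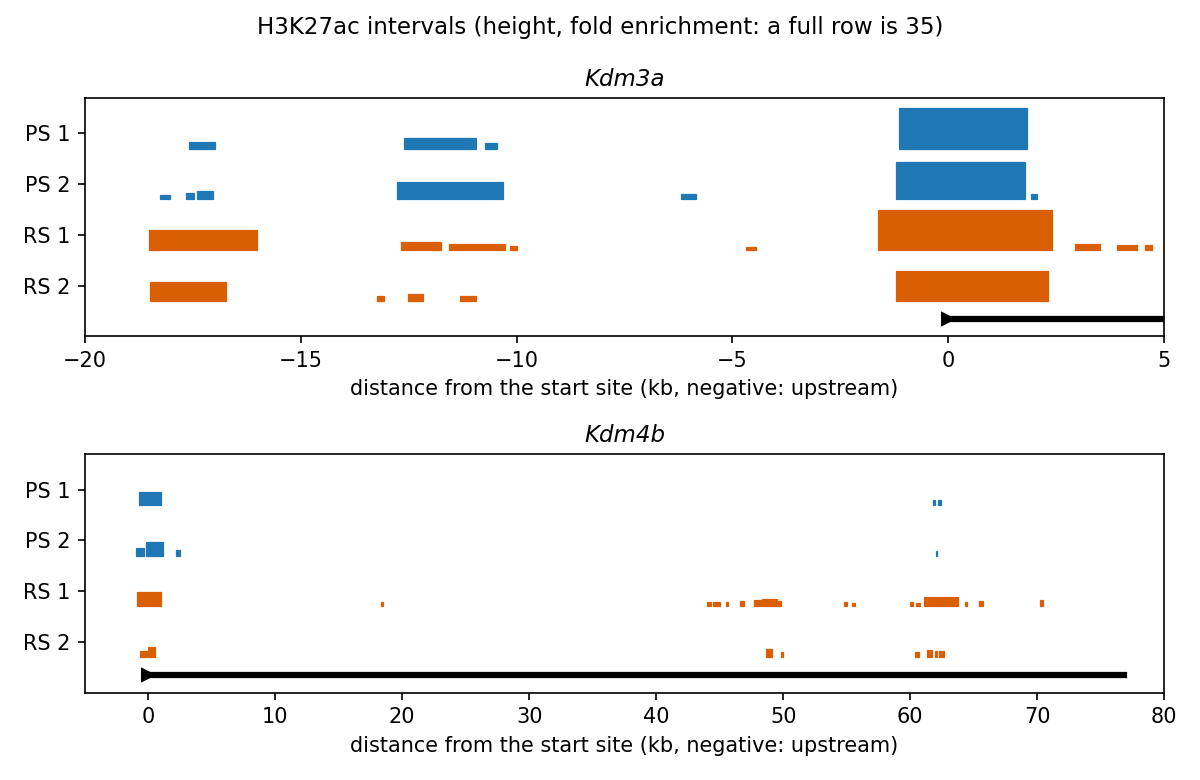
H3K27ac intervals around Kdm3a and Kdm4b by distance from the start site in kb, 1 row per wild-type sample, with PS in blue and RS in orange, interval height as fold enrichment and the black bar as the transcribed gene. In the top panel the nearer of the 2 upstream regions is tallest in PS and the farther one is tallest in RS, and in the lower panel the intervals inside Kdm4b beyond 40 kb are mostly those of RS.

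The genes that write the same marks, and the relatives and partners of the members, were read in the same fit of dKO RNA. Over all tested genes in this fit, 30.4% were called higher in RS and 27.6% lower, with a median log2 fold change of 0.01. Of 17 other lysine demethylase and JmjC genes, 4 rose and 5 fell in RS, and 8 were not called, with a median log2 fold change of 0.33. Uty and Kdm6a, a Y-linked and X-linked pair of which Kdm6a removes methylation from H3K27, rose by 1.87 ± 0.37 and 1.33 ± 0.28 on the log2 scale, and Phf8, an X-linked demethylase for H3K9me2, rose by 1.55 ± 0.20 (edgeR adjusted p = 0.00243, 0.00344 and 0.000215). Uty rose from low levels, 0.285 and 0.224 RPKM in PS and 0.711 and 1.12 in RS. Phf2, which acts on H3K9me2, fell more than any member, from 66.8 and 70.7 RPKM in PS to 4.62 and 6.23 in RS, a log2 fold change of −3.63 ± 0.17 (edgeR adjusted p = 3.29e-06). Kdm8 (−1.57 ± 0.29) and Jmjd1c, the third gene of the KDM3 family (−1.20 ± 0.13), fell as well.

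Among 9 H3K4 methyltransferase genes, 2 rose and 3 fell, with a median of −0.46. Kmt2d, a methyltransferase active at enhancers, fell from 10.5 and 8.70 RPKM in PS to 1.07 and 1.23 in RS (−3.02 ± 0.15, edgeR adjusted p = 3.43e-06). Kmt2b (−1.16 ± 0.22) and Setd1a (−0.70 ± 0.15) fell too, while Kmt2a rose by 1.05 ± 0.20 and Prdm9, which marks the sites of meiotic recombination, by 0.90 ± 0.32. Of 6 H3K9 methyltransferase genes, 4 rose and 1 fell, with a median of 0.67. Suv39h2, an enzyme for H3K9me3 expressed in the germline, went from 3.08 and 2.97 RPKM in PS to 14.6 and 13.8 in RS (2.29 ± 0.16, edgeR adjusted p = 7.91e-06). Suv39h1 rose by 1.23 ± 0.20 and Ehmt1 by 0.74 ± 0.24, while Setdb1 fell by 1.13 ± 0.13. Of 6 H3K36 methyltransferase genes only Setd2, the enzyme for H3K36me3, passed, at 19.3 and 17.2 RPKM in PS and 6.06 and 6.75 in RS (−1.47 ± 0.13, edgeR adjusted p = 2.86e-05), and the median was −0.13. The rise of Prdm9 lost its call in DESeq2 (adjusted p = 0.0746) and without PS replicate 1 (adjusted p = 0.122), RS replicate 1 (adjusted p = 0.0503) or RS replicate 2 (adjusted p = 0.162). That of Ehmt1 was lost in DESeq2 (adjusted p = 0.0655) and without PS replicate 2 (adjusted p = 0.0677), RS replicate 1 (adjusted p = 0.0990) or RS replicate 2 (adjusted p = 0.0717), and the fall of Setd1a without RS replicate 1 (adjusted p = 0.0795) and among genes with at least 50 counts in 2 samples (−0.58, under 1.5-fold). In limma on log2(RPKM + 1) the rises of Kmt2a (0.55), Prdm9 (0.54) and Ehmt1 (0.44) were under 1.5-fold.

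Of 10 genes for CoREST complex partners of KDM1A, 2 rose and 5 fell, with a median of −0.48, whereas Kdm1a itself was not called. Phf21a, a reader of unmethylated H3K4 in this complex, fell from 22.6 and 25.2 RPKM in PS to 5.54 and 6.23 in RS (−1.99 ± 0.14, edgeR adjusted p = 9.57e-06), with Zmym2 (−1.36 ± 0.14) also lower. Zmym3, an X-linked partner, rose by 1.63 ± 0.17 and Rcor2 by 0.75 ± 0.24 (edgeR adjusted p = 6.69e-05 and 0.0222). The call of Rcor2 was lost in DESeq2 (adjusted p = 0.0895) and without RS replicate 1 (adjusted p = 0.111) or RS replicate 2 (adjusted p = 0.0832), and in limma on log2(RPKM + 1) its rise (0.54) was under 1.5-fold.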

How the data were processed

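Acetylation lists came from wild-type cells and expression tables from Rnf8- and Scml2-dKO cells, with 2 samples for each stage and assay, grouped by the sample labels. The authors aligned RNA-seq reads to mm10 with STAR 2.4.2a, kept unique alignments and split reads between RefSeq isoforms by expectation maximization. They deposited raw read counts and RPKM, scaled by them to transcript length and library size. For ChIP-seq they aligned with Bowtie and called peaks per sample with MACS2. The submitters' processing notes give versions 1.1.1 and 2.1.0.20140616 of these tools, while the methods of the paper name other versions of both. The deposited lists give the pileup signal, the ratio called fold enrichment, and −log10 p and q values. The RNA amplification kit is not stated to keep strand, so reads of overlapping antisense genes cannot be told apart.

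Isoform rows were summed per gene. Counts were tested with edgeR 4.0.16 (TMM) for genes with at least 10 counts in 2 samples, and called at an adjusted p of 0.05 and 1.5-fold. Promoter values, log2(1 + fold enrichment), were tested with limma 3.58.1 where 2 of 4 samples had an interval. Adjustment was Benjamini-Hochberg over all features. DESeq2 1.42.0, other scalings, filters, windows, a replicate block and fits without each sample were alternatives. Python 3.11.15, R 4.3.3, numpy 2.4.6, pandas 2.3.3 and matplotlib 3.10.9 were used. The fits were also run on simulated data. For promoters these had equal noise in every sample and no shift between whole samples, unlike the real lists. The SE from edgeR is the log2 fold change divided by the square root of F. The members, marker lists and gene lists were chosen with earlier results of these data known. Genes named are all 10 members, and from each list the called genes with the largest changes, at most 3 per direction. One gene that this rule names is not reported here.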

Additional observations from a re-analysis of the deposited data

How the results depend on the processing

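The RNA calls of Kdm3a, Kdm5b, Kdm4b and Kdm1b held under all 11 alternatives, and those of Kdm4a and Kdm4c under 9 and 4 of them. Kdm3b turned to 0.051 with at least 50 counts in 2 samples, and ranged from −0.10 to 0.14 without single samples. Without single RNA samples, where the lone sample of a stage is assumed to vary like the others, 2 to 3 members were called in each direction, 3128 to 4671 genes were higher and 2911 to 3983 lower, and 9 to 14 listed genes were higher and 14 to 16 lower; limma on log2(RPKM + 1) called 7 of them higher in place of 12. As counts in place of RPKM, the RS minus PS difference in share was −4.14 points for Kdm1a (from −2.59), −6.09 for Kdm3a (from −4.32), 10.24 for Kdm5a (from 6.92) and −15.8 for Kdm4d (from −11.3), since counts are not divided by length. The highest isoform alone gave −4.58 for Kdm3a. Without single samples these shares ranged from −2.90 to −2.29, from −4.44 to −4.19, from 6.11 to 7.73 and from −13.7 to −8.99.

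Median centring and quantile normalization called 2 member promoters lower, and 1871 and 1805 of all promoters higher in place of 717. Intervals required in all 4 samples gave 3 members and 3727 promoters lower, in place of 1 and 2163. Without single ChIP samples, 0 to 4 members were lower and 0 higher, and 25 to 530 promoters were higher and 476 to 4231 lower. The difference turned in sign under centring and quantile normalization at Kdm3a (0.24 and 0.20), Kdm4a (0.23 and 0.25), Kdm4b (0.27 and 0.25) and Kdm5b (0.33 and 0.24). Without single samples it ranged from −0.36 to 0.046 at Kdm3a, from −0.35 to 0.030 at Kdm4a, from −0.35 to 0.093 at Kdm4b, from −0.31 to 0.35 at Kdm5a and from −0.15 to 0.031 at Kdm5b. Regions away from starts in both replicates fell from 8 in PS and 15 in RS to 3 and 6 at a −log10 q of 5. With 50% reciprocal overlap they fell to 2 and 3. Where 1 sample stood for a stage they rose, to 19 or 21 in PS and to 28 or 74 in RS. That alternative was added after seeing the data, as was the use of summits within 2000 bp, which left 1 member called. The cause of these shifts was not tested.

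The replicate numbers are shared by labels only, and deviations of same-numbered samples correlated at 0.225 in RNA and 0.0069 in ChIP. The replicate block called 3 members higher and 3 lower in RNA, 1 lower in H3K27ac, 4589 genes higher and 4134 lower, and 510 promoters higher and 1626 lower. With 2 samples per stage and pileups as low as 8 fragments at Kdm1b in RS replicate 2, small differences were not detectable.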

Other observations

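H3K27ac at the starts of the other demethylase genes, the methyltransferase genes and the CoREST partner genes was read in the same promoter fit as the members. Over all 13699 promoters tested, 15.8% were called lower in RS and 5.23% higher. Of 15 tested promoters of other lysine demethylase and JmjC genes, 0 were higher and 3 lower in RS. Of 9 promoters of H3K4 methyltransferase genes 1 was lower, of 6 of H3K9 methyltransferase genes 2, and of 10 of CoREST partners 2, while of 5 of H3K36 methyltransferase genes 1 was higher. Their medians ran from −0.29 to −0.76 on the log2 scale, beside −0.43 for all promoters. Nothing particular to these lists is read from the counts. The RNA and the H3K27ac come from different genotypes, and the difference between these readouts was not tested.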
